A study of Mus musculus with 3 samples.

Results

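The genes described here code for glycosyltransferases and sulfotransferases that build glycans, the sugar chains of mucins, membrane proteins and lipids. They were chosen by name from the gene table of the array platform, as the genes whose symbol begins with C1galt1, or with Galnt, Galntl, Gcnt, B3gnt, B3galt, B4galt, St3gal, St6gal, St6galnac, Fut or Chst and a digit. The rule found 81 of the 18194 genes with a probe set of their own, and the probe set whose mean over the arrays was highest stood for each gene. Fut4-ps1, a pseudogene, has a matching name and was kept. Names without that digit, among them B3gntl1, B3galnt1 and B4galnt2, stayed outside the rule.

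The study profiled 3 epithelial lineages of the mouse stomach by laser-capture microdissection and Affymetrix Mouse Genome 430 2.0 arrays, with 1 array for pit cells, 1 for parietal cells and 1 for zymogenic cells. Pit cells line the upper gastric unit and secrete mucus; they were taken as cells positive for E-cadherin that did not bind the lectin DBA. Parietal cells, which secrete acid, were taken from the pit zone of the same units as cells that bind DBA. Zymogenic cells, which secrete pepsinogen, were taken from the base zone on other slides as cells positive for E-cadherin that bind neither DBA nor the lectin GSII. RNA of each lineage was a pool over 4 to 5 mice and 3000 to 5000 cells, amplified from 20 ng. No treatment or transgene is named for any of the 3 groups, and the sources used here give neither strain nor age. With a single pooled array for each lineage, replicate error is missing and no test can be made, and all differences below describe these 3 arrays. The zymogenic array's lineage and its slides cannot be told apart, and fewer cells of a type cannot be told apart from less RNA per cell.

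Values are intensities in linear units, as deposited. A detection floor of 23.3 was used, taken from 80 probe sets of olfactory and vomeronasal receptor genes (their 95th percentile on the array where it was highest). Values under it have no order among themselves, and a value under it does not show that a transcript was missing. For ratios, such values were raised to the floor, so a fold against one of them is a lower bound, given as "at least". Genes at least 2-fold apart were counted. With the other array under the floor, this takes a value of at least 46.5. As a measure of scatter, log2 ratios from different probe sets of the same gene had an SD of 0.48 over 785 combinations of gene and array pair. Only probe sets above the floor on both arrays entered it. None of the genes described here did, since none has a further probe set above the floor.

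Defining markers of the lineages bear on how the arrays can be read. All 10 listed pit cell markers were above the floor in the pit and parietal collections, with summed intensities of 25869.6 and 22872, against 222 in the zymogenic one, where 2 of 10 were above it. Among them, 4 were at least 2-fold higher in pit than in parietal cells. These were Psapl1 (9552 in pit and 353 in parietal cells), Krt20 (657 and 32.2), Muc5ac (1225 and 425) and Capn8 (69.8 and 23.9). Another 2, Gkn2 (2723 in pit and 7987 in parietal cells) and Tff2 (110 and 402), were at least 2-fold lower in pit than in parietal cells. Gkn1 and Ctse were also higher on the parietal array, and Tff1 and Psca on the pit array, all within 2-fold. The 12 parietal markers summed to 409.9 in pit, 5785 in parietal and 1407 in zymogenic cells, with 3, 7 and 6 above the floor. The 8 zymogenic markers measured summed to 223, 818 and 15792, in the same order of arrays. Chia1 (9916) and Pgc (4593) gave most of the zymogenic sum. Pga5 was highest on the parietal array (47.6, against 30.9 on the zymogenic array) and Rab3d on the pit array (57.6, against 42.6). Lipf was under the floor on every array. Of 7 endocrine markers, 5 were above the floor on the zymogenic array, where the list summed to 959, while 1 was above it on the pit array (sum 68.1) and 0 on the parietal array (sum 40.4). Gast and Tph1 did not reach the floor on any array, and Hdc was listed at 0 on the parietal array. Of the parietal markers, Atp4a (12.5, 214 and 261 in pit, parietal and zymogenic cells), Kcnq1, Slc4a2 and Ckb were highest on the zymogenic array among those above the floor. The other 3 above it, Atp4b (102, 4402 and 793), Car2 (210, 731 and 15.0) and Clic6 (10.6, 232 and 109), were highest on the parietal array. Each of these was at least 2-fold higher in parietal than in zymogenic cells. The 9 fibroblast and muscle markers summed to 197, 417 and 335 in pit, parietal and zymogenic cells, with 2, 5 and 4 above the floor. Among these, Col1a2 was 4.91-fold and Col3a1 at least 4.45-fold lower in pit than in parietal cells. The 7 blood and immune markers measured summed to 29.7, 47.9 and 103, with 0, 1 and 2 above the floor, and Cd79a was above it on the zymogenic array alone (48.8). The 4 endothelial markers were all under the floor, and of 5 pancreatic acinar markers measured, Prss2 was above it on every array. Mucous neck markers, 4 measured, summed to 157, 427 and 39.9 in pit, parietal and zymogenic cells, with 2, 1 and 0 above the floor. Most of these sums was Tff2 (110, 402 and 21.9), which is also on the pit list, and Muc6 was not found among the genes. The part of these cells in the results below was not tested.

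O-glycans of mucins begin when a GALNT enzyme links GalNAc to serine or threonine in the Golgi. C1GALT1 adds galactose to give core 1, GCNT enzymes add a GlcNAc branch to give core 2 or core 4, and B3GNT and B3GALT or B4GALT enzymes extend the chains. Sialyltransferases, fucosyltransferases and sulfotransferases then cap them. In the stomach these chains make up most of the mass of the secreted mucin MUC5AC and carry blood group and Lewis antigens. Several members act elsewhere, on N-glycans, glycolipids or proteoglycans, and only some of these are named as such. The counts by role include them all, and the pseudogene Fut4-ps1 is counted with the fucosyltransferases.

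Most of these enzymes gave little signal, as did most genes on these arrays. Of the 81 genes, 19 (23.5%) were above the floor on at least 1 array, against 22.7% of all genes. On all 3 arrays 5 were above it, and 62 stayed under it throughout, the highest of those reaching 22.1. By array, 14 were above the floor in pit cells, 12 in parietal cells and 11 in zymogenic cells, which are 17.3%, 14.8% and 13.6% of the members, against 14.4%, 15.4% and 12.6% of all genes. Among the roles, 5 of 18 initiating enzymes, 3 of 7 core and branching enzymes, 4 of 19 extending enzymes, 3 of 14 sialyltransferases, 2 of 9 fucosyltransferases and 2 of 14 sulfotransferases were above it. The plot of all members by role shows how few points lie over the floor line in every role and lineage.

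**Figure D1:**
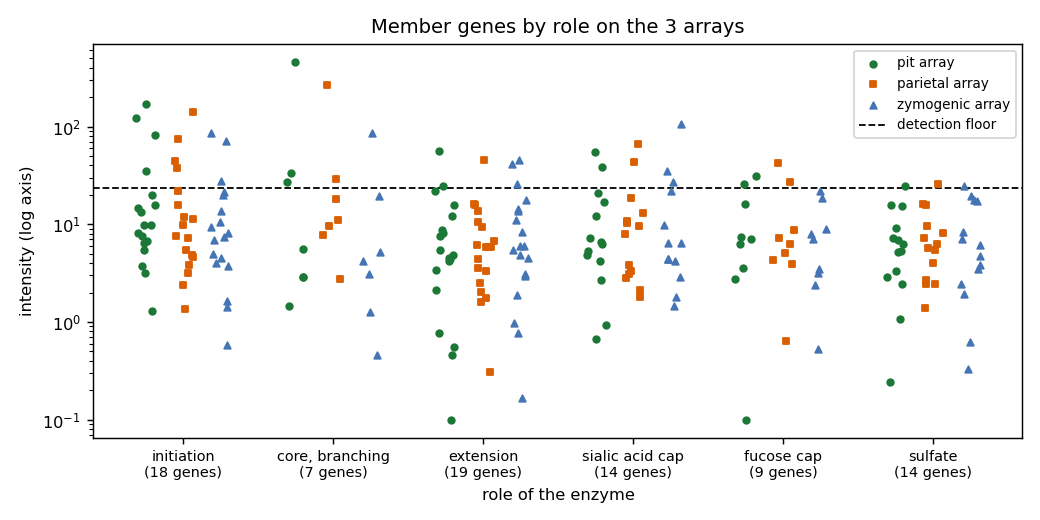
Intensity of each of the 81 member genes (log axis; values under 0.1 are drawn at 0.1) by role of the enzyme, with circles for the pit, squares for the parietal and triangles for the zymogenic array and a dashed line at the detection floor of 23.3. Most points lie under the line, and the highest belong to Gcnt3 (459 in pit cells, 264 in parietal cells) among core and branching enzymes.

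In all, 7 genes were at least 2-fold apart between some pair of arrays, as 12 pairings. Between pit and zymogenic cells, 5 of 81 members (6.17%) were at least 2-fold higher in pit cells, against 4.24% of all genes, and 2 (2.47%) were lower, against 2.35%. Between parietal and zymogenic cells, 2 (2.47%) were higher in parietal cells, against 4.74% of all genes, and 2 (2.47%) were lower, against 1.74%. Between pit and parietal cells, 1 member (1.23%) was higher in pit cells, against 1.46% of all genes, and 0 were lower, against 2.73%. These shares are near those of all genes, so the counts set no direction for the family as a whole. Both comparisons with zymogenic cells share that array. Means of the spiked controls BioB and BioC were 712 in pit, 303 in parietal and 711 in zymogenic cells, and scaling to them gave 8 members lower in pit than in parietal cells and 10 higher in parietal than in zymogenic cells. All genes moved with that scaling. Their median log2 ratio, for genes above the floor on both arrays, became -1.09 for pit over parietal and 1.41 for parietal over zymogenic cells. Shares of all genes were not counted under it.

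**Figure D2:**
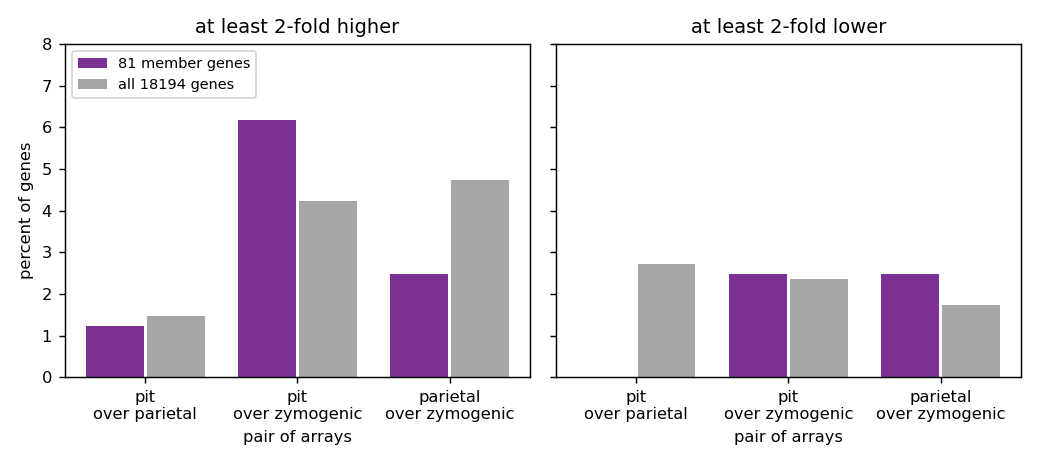
Percent of genes at least 2-fold higher (left) or lower (right) in each pair of arrays, for the 81 member genes and for all 18194 genes. The members' bars stay near those of all genes, with 6.17% against 4.24% for higher in pit than in zymogenic cells and 0 against 2.73% for lower in pit than in parietal cells.

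The median log2 ratio of members above the floor on 1 or both arrays of a pair was likewise near that of all such genes. It was 0.11 for pit over zymogenic cells (18 members) against 0.13 for all genes, 0.17 for parietal over zymogenic cells (18 members) against 0.29, and -0.051 for pit over parietal cells (15 members) against -0.085. At a threshold of 4-fold, Gcnt3 and Galnt2 were higher in pit than in zymogenic cells, where 1.6% of all genes were, and Gcnt3 was higher in parietal than in zymogenic cells, where 1.44% were. No member passed 4-fold in another direction, where the shares of all genes were 0.764% (pit lower than zymogenic), 0.643% (parietal lower than zymogenic), 0.22% (pit higher than parietal) and 0.555% (pit lower than parietal). What the enzymes showed therefore lies in single genes, which follow in the order of synthesis.

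Initiating enzymes differed in direction between isoforms. Galnt2, a widely expressed isoform that starts chains on bare peptide, stood at 121 in pit cells, 74.4 in parietal cells and 28.0 in zymogenic cells. It was 4.32-fold higher in pit than in zymogenic cells and 2.66-fold higher in parietal than in zymogenic cells. Pit cells had 1.63 times the parietal value, within 2-fold.

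Galnt4, an isoform that prefers peptides already carrying GalNAc, had the same order, with 171 in pit cells, 140.2 in parietal cells and 70.3 in zymogenic cells. The pit value was 2.44-fold higher than the zymogenic one, and the parietal value, 1.99-fold higher, lay just under the threshold. Galnt10, which also prefers glycosylated peptides, was above the floor in pit cells alone, at 81.5 against 15.6 in parietal cells and 13.7 in zymogenic cells. It was at least 3.51-fold higher in pit cells than in either of the others. Galnt10 was the 1 member that separated pit from parietal cells by 2-fold.

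Galnt1, the other widely expressed starter isoform, ran the opposite way. It stood at 35.5 in pit cells, 37.9 in parietal cells and 85.8 in zymogenic cells, all above the floor. It was 2.42-fold lower in pit than in zymogenic cells and 2.26-fold lower in parietal than in zymogenic cells. The order of parietal and zymogenic cells turned when the arrays were scaled to the BioB and BioC hybridisation controls, with a log2 ratio of 0.044. The 2-fold threshold was missed by Galnt1, Galnt2 and Galnt10 when the mean over a gene's probe sets was used, by Galnt1 and by Galnt2 in parietal over zymogenic cells with the floor as a pseudocount, and by that Galnt2 pairing and by Galnt4 after quantile normalization.

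Galnt6 was above the floor in parietal cells alone, with 20.1 in pit cells, 44.0 in parietal cells and 1.63 in zymogenic cells, which makes the parietal value at least 1.89-fold higher than that of zymogenic cells. The other 13 initiating enzymes were under the floor on every array, at most 22.0. They include Galnt3, with 9.79, 7.64 and 4.47 in pit, parietal and zymogenic cells, Galnt5, Galnt7 and Galnt12.

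Among core and branching enzymes, Gcnt3 had the largest lower bound on a ratio of any member. Gcnt3 codes for the mucin-type enzyme that forms core 2 and core 4 branches, and its probe set read 459 in pit cells and 264 in parietal cells, against 3.12 in zymogenic cells. It was at least 19.7-fold higher in pit and at least 11.3-fold higher in parietal cells than in zymogenic cells, and the pit value was 1.74 times the parietal one. With the mean over its 3 probe sets the log2 ratios to zymogenic cells were 2.79 in pit and 2.08 in parietal cells, against 4.30 and 3.50, and BioB and BioC scaling gave 4.56 for parietal cells. Muc5ac, the main substrate mucin of pit cells, had the same order of arrays, at 1225, 425 and 14.5.

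Gcnt7, a further gene of the branching family, ran against Gcnt3. It stood at 33.3 in pit cells, 18.2 in parietal cells and 86.0 in zymogenic cells. It was 2.58-fold lower in pit cells than in zymogenic cells and at least 3.70-fold lower in parietal cells than in zymogenic cells; with the floor as a pseudocount the pit difference was under 2-fold. With BioB and BioC scaling the log2 ratio of parietal over zymogenic cells was -1.01, against -1.89. On the zymogenic array, where Gcnt7 and Galnt1 were highest, the endocrine markers were high as well, and their part was not tested.

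C1galt1, which makes core 1 from the first GalNAc, was just above the floor in pit cells (27.3) and parietal cells (28.9) and under it in zymogenic cells (5.19). C1galt1c1, its dedicated chaperone, was under the floor throughout, with 2.89, 11.2 and 4.22 in pit, parietal and zymogenic cells. So were Gcnt1, the other core 2 enzyme measured, Gcnt2, the I-branching enzyme, and B3gnt6, the core 3 synthase, at 1.44, 7.81 and 0.464. In this role 3 of the 7 genes were thus measurable, where 22.7% of all genes were, and so few genes set nothing for the role. Of these, Gcnt3 and Gcnt7 were at least 2-fold apart, as given above.

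Extending enzymes above the floor were galactosyltransferases. B4galt1, which makes the N-acetyllactosamine unit and, in the mammary gland, is the catalytic part of lactose synthase, stood at 56.1 in pit cells, 45.3 in parietal cells and 14.4 in zymogenic cells. It was at least 2.41-fold higher in pit cells than in zymogenic cells and at least 1.95-fold higher in parietal than in zymogenic cells. B4galt2, a second N-acetyllactosamine synthase, was above the floor in zymogenic cells alone, with 8.13 in pit cells, 6.10 in parietal cells and 41.5 in zymogenic cells.

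B3galt6, which acts on the linker of glycosaminoglycans rather than on mucins, was likewise above the floor in zymogenic cells alone, with 0.550 in pit cells, 1.59 in parietal cells and 45.1 in zymogenic cells. Neither gene reached 46.5, so with values under the floor raised to it neither could pass the threshold against arrays under it. Both genes passed in both comparisons with zymogenic cells with the floor as a pseudocount, and also under the 90th percentile floor. With the pseudocount they were the only members at least 2-fold lower in pit than in zymogenic cells. Galnt1 and Gcnt7 stayed lower in pit cells there but missed the threshold, at log2 ratios of -0.89 and -0.95. After quantile normalization B3galt6 passed in both comparisons and B4galt2 in neither. Neither gene passed with the other scalings or probe set rules. B4galt6, a lactosylceramide synthase, read 24.5, 16.3 and 26.1 in pit, parietal and zymogenic cells, close to the floor. All 7 B3gnt genes with an extending role, which add the GlcNAc that lengthens chains, were under the floor on every array, with B3gnt3, known for extending core 1, at most 7.61.

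**Figure D3:**
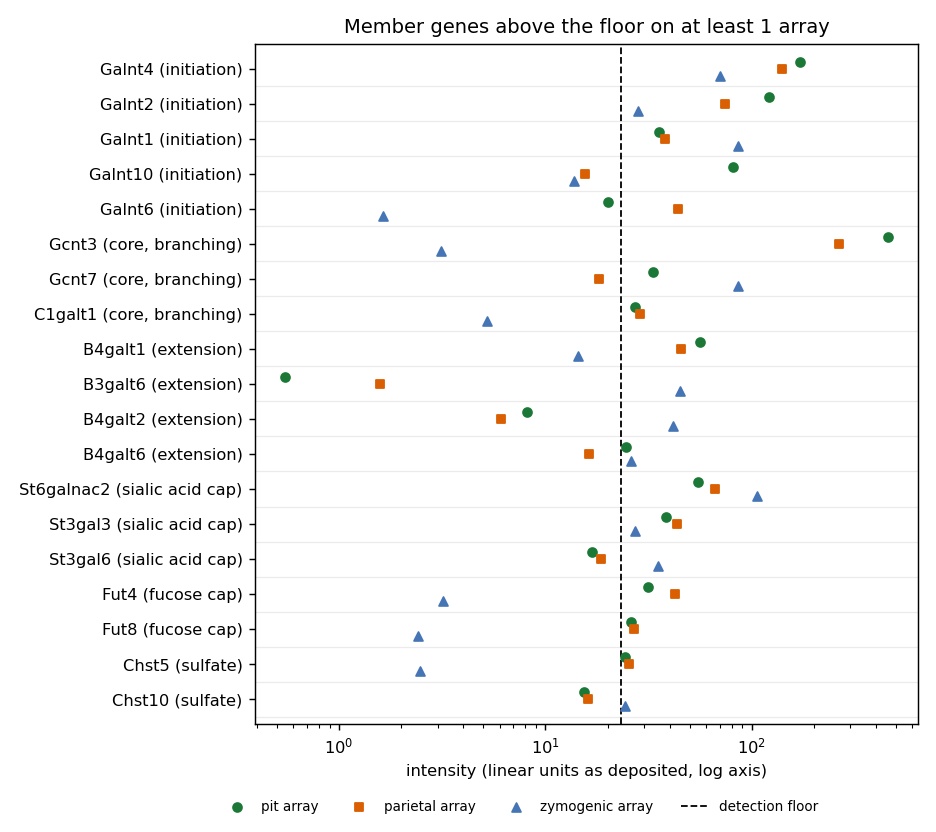
Intensity (log axis) of the 19 member genes above the floor of 23.3 (dashed line) on at least 1 array, grouped by role, with circles for pit, squares for parietal and triangles for zymogenic cells. Gcnt3 reads 459 and 264 in pit and parietal cells against 3.12 in zymogenic cells, Galnt10 is over the line in pit cells alone, and Galnt1, Gcnt7 and St6galnac2 have their highest point in zymogenic cells.

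Promoter sequences are shown for Galnt10, B4galt1 and Gcnt7, the 3 of 7 members at least 2-fold apart that have an entry in the RefSeq promoter table (GRCm38.p6), since Galnt10 and B4galt1 were higher in pit cells and Gcnt7 in zymogenic cells. Each runs from 250 bases before to 50 bases after the gene start, at chr11:57645192-57645491 on the plus strand for Galnt10, chr4:40853935-40854234 on the minus strand for B4galt1 and chr2:172458547-172458846 on the minus strand for Gcnt7. Capitals mark GGGCGG or its reverse complement, the GC box bound by SP and KLF factors.
Galnt10: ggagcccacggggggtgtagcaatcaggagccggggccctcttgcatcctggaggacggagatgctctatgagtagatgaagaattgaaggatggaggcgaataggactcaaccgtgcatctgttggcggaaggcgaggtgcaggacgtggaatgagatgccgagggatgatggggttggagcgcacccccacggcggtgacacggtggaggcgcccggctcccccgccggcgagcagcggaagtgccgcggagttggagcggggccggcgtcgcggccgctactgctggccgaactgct
B4galt1: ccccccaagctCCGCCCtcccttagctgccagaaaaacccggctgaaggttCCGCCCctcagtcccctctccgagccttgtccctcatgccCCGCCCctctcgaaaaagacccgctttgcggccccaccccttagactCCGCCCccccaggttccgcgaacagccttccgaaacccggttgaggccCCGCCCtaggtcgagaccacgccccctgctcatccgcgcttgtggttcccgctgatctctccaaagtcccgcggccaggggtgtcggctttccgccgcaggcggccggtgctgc
Gcnt7: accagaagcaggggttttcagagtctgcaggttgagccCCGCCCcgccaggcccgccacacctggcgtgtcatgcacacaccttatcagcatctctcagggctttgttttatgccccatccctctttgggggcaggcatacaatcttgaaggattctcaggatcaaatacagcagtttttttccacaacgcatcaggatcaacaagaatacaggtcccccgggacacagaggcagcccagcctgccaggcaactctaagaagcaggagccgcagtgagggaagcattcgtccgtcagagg
The B4galt1 window holds 5 GC boxes, that of Gcnt7 holds 1 and that of Galnt10 holds 0, and 35.7% of the 32851 promoters in the table hold at least 1. A search on both strands found no match in the 3 windows for the CCAAT box (CCAAT, in 37.4% of all promoters in the table), the TATA box (TATAAA, in 13.6%), either E-box form bound by MIST1, the product of Bhlha15 (CAGCTG, in 16.3%, or CATATG, in 3.91%), or a forkhead motif (TGTTTAC, in 3.65%). The GC content was 66.0% for Galnt10, 68.3% for B4galt1 and 55.7% for Gcnt7.

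Of the sialyltransferases, 3 were above the floor and none passed the 2-fold threshold on the values as deposited. St6galnac2, which adds sialic acid to the GalNAc of core 1, was above the floor on all 3 arrays, with 54.9 in pit cells, 66.0 in parietal cells and 106 in zymogenic cells. Its pit value was 1.94-fold lower than the zymogenic one, just short of the threshold, and it passed against zymogenic cells in both comparisons after quantile normalization. St3gal3, which caps galactose at chain ends, was also above the floor throughout, at 38.4, 43.3 and 27.3.

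St3gal6, which caps type 2 chains, was above the floor in zymogenic cells alone, at 16.8 in pit cells, 18.7 in parietal cells and 35.3 in zymogenic cells, which makes it at least 1.52-fold lower in pit and in parietal cells than in zymogenic cells. The other 11 were under the floor on every array, at most 21.7. Among them are St3gal1, which caps core 1 (0.939, 3.13 and 4.37 in pit, parietal and zymogenic cells), and St6galnac1, which makes the sialyl-Tn antigen (4.89, 7.89 and 9.88).

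The 2 of 9 fucosyltransferases above the floor were so in pit and parietal cells and not in zymogenic cells. Fut4, an alpha-1,3 enzyme that makes Lewis x, stood at 31.3 in pit cells, 42.7 in parietal cells and 3.20 in zymogenic cells. The parietal value was at least 1.83-fold higher than the zymogenic one, which is short of the threshold. Fut8, which places the core fucose of N-glycans and not of mucin chains, stood at 25.9, 26.8 and 2.41. Fut2, the secretor enzyme that makes the H antigen of secreted mucins, was under the floor, at 16.0 in pit cells, 8.69 in parietal cells and 3.52 in zymogenic cells, and so was Fut1.

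Of the sulfotransferases, 2 were above the floor and close to it. Chst5, a GlcNAc 6-O-sulfotransferase, stood at 24.4 in pit cells, 25.5 in parietal cells and 2.46 in zymogenic cells, with the higher values just over the floor. Chst10, which forms the HNK-1 epitope, read 15.3, 16.1 and 24.4 in the same order. The other 12 genes, the chondroitin and dermatan sulfotransferases included, were under the floor on every array, at most 19.5.

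Among the 19 measurable genes, the zymogenic array was highest for 8, the parietal array for 6 and the pit array for 5. This order was not counted over all genes, so it is no result about the members. The parietal array was highest for St3gal3 and for C1galt1, Fut4, Fut8, Chst5 and Galnt6, which were under the floor in zymogenic cells. Except for Galnt6, a bound, their log2 ratios of pit to parietal cells ran from -0.449 for Fut4 to -0.051 for Fut8. These lie within the SD of 0.48 between probe sets of other genes, which holds no replicate error and no effect of array scaling. With BioB and BioC scaling all 6 of these genes were at least 2-fold lower in pit than in parietal cells. The median log2 ratio of all genes above the floor on both arrays moved too, to -1.09, and shares of all genes were not counted. Pit and parietal cells came from the same gastric units. For the 11 members above the floor on both arrays, the ratio of pit to parietal cells ran from 0.733 for Fut4 to 1.74 for Gcnt3 on the values as deposited. The other 4 members above the floor on 1 of these arrays have only bounds, and 66 have no ratio. The pit markers were on the parietal array too, and their part in these ratios was not tested.

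Each reading rested on a single probe set. The 81 genes have 162 probe sets, and none of the 81 that were not chosen was above the floor on any array, the highest being 20.7 for B4galt2 in zymogenic cells. Of the 19 measurable genes, 15 have such further probe sets, 28 in all. Those of Gcnt3 read 18.1, 18.1 and 4.45 and 4.00, 12.7 and 0.694 in pit, parietal and zymogenic cells. Those of Galnt4 read 3.57, 5.87 and 12.2 and 0.936, 0.332 and 5.05, and B4galt1 and Gcnt7 have no second probe set. The plot of all probe sets shows 1 line over the floor for each of the 7 genes and the others under it.

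**Figure D4:**
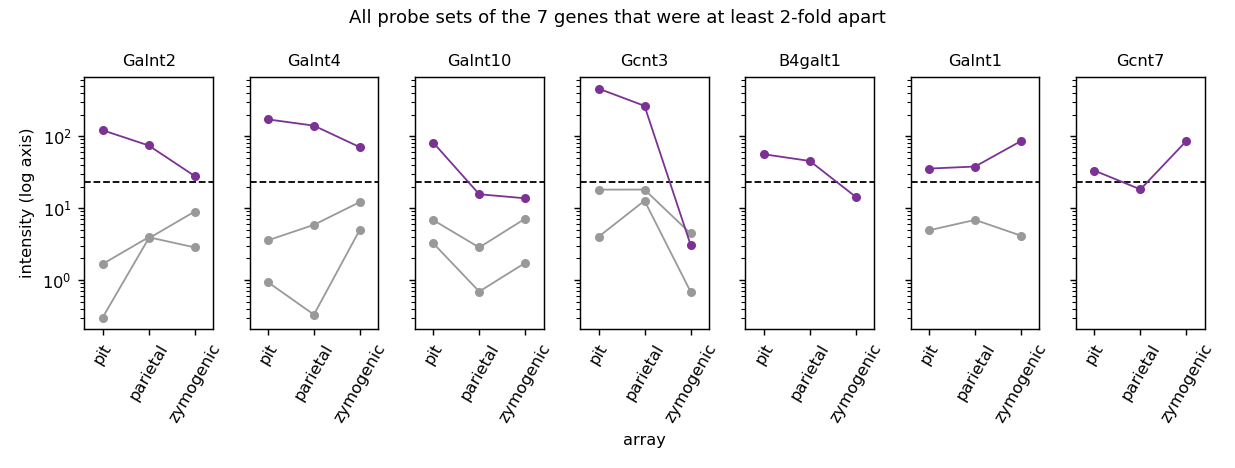
Intensity (log axis) of every probe set of the 7 member genes at least 2-fold apart, on the pit, parietal and zymogenic arrays, with the chosen probe set in purple, further ones in grey and the floor of 23.3 dashed. No further probe set reaches the floor; for Gcnt3 the further ones read at most 18.1.

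Genes that supply substrates and donors were examined beside the enzymes. Of 14 mucins and mucin-like proteins measured, 3 were above the floor. Muc5ac was 2.88-fold higher in pit than in parietal cells, at least 52.7-fold higher in pit than in zymogenic cells and at least 18.3-fold higher in parietal than in zymogenic cells. With BioB and BioC scaling the difference between pit and parietal cells was under 2-fold, at a log2 ratio of 0.30. Muc1, a membrane mucin, had 42.5 in pit cells, 137 in parietal cells and 43.9 in zymogenic cells, and was 3.22-fold lower in pit than in parietal cells and 3.13-fold higher in parietal than in zymogenic cells. Cd24a, a small mucin-like protein, stood at 154, 349.6 and 257, which is 2.27-fold lower in pit than in parietal cells, but under 2-fold after quantile normalization (log2 ratio -0.91).

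Of 24 genes of sugar nucleotide synthesis, 15 were above the floor. In this list, 3 of 24 were at least 2-fold higher in pit than in zymogenic cells (4.24% of all genes) and 2 lower (2.35%). Between parietal and zymogenic cells, 6 were higher in parietal cells (4.74% of all genes) and 0 lower (1.74%). Between pit and parietal cells, 0 were higher in pit cells (1.46% of all genes) and 4 lower (2.73%). The same shares of all genes stand behind the counts of the other lists. Over all genes, 22.7% were above the floor on at least 1 array. Ugdh, which makes UDP-glucuronate, was at least 6.61-fold higher in pit and at least 6.01-fold higher in parietal cells than in zymogenic cells, at 154 in pit cells, 139.7 in parietal cells and 4.20 in zymogenic cells. Cmas, which activates sialic acid, was at 61.3, 54.7 and 20.1, and Pmm2, a phosphomannomutase, at 61.5, 59.7 and 19.2.

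Gmds, the first enzyme towards GDP-fucose, was 3.01-fold lower in pit than in parietal cells, with 39.5 in pit cells, 119 in parietal cells and 102 in zymogenic cells. Gfpt1, which opens the hexosamine pathway, was 2.53-fold lower in pit than in parietal cells, at 23.9, 60.5 and 54.4 in pit, parietal and zymogenic cells, but under 2-fold after quantile normalization (log2 ratio -0.97). Ugp2, which makes UDP-glucose, stood at 43.7, 149 and 38.1, a 3.42-fold lower value in pit than in parietal cells. Uap1 and Galt passed the threshold for higher values in parietal than in zymogenic cells, and Uap1 also for lower ones in pit than in parietal cells. Over all lists of related genes, 36 pairings of a gene with 2 arrays passed, and 9 of them were under 2-fold after quantile normalization, namely Cmas, Pmm2, Galt, Uap1 and Slc35a2 in parietal over zymogenic cells, Slc35a2 in pit over zymogenic cells, and Cd24a, Gfpt1 and Uap1 in pit over parietal cells.

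Golgi transporters bring the donors to the enzymes. Of 13, 6 were above the floor, and 2 were at least 2-fold higher in both pit and parietal cells than in zymogenic cells. Slc35c1, the GDP-fucose transporter, had 105.6 in pit cells, 71.7 in parietal cells and 13.4 in zymogenic cells, at least 4.54-fold higher in pit and at least 3.08-fold higher in parietal cells than in zymogenic cells. Slc35a2, the UDP-galactose transporter, had 88.5, 82.8 and 38.1, 2.32-fold higher in pit and 2.17-fold higher in parietal cells than in zymogenic cells. Slc35a1, the CMP-sialic acid transporter, stood at 45.0, 26.3 and 5.75, short of the threshold. Papss2, which makes the sulfate donor, was the 1 gene of 4 in its list above the floor, at 39.9 in pit cells, 23.2 in parietal cells and 4.39 in zymogenic cells.

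**Figure D5:**
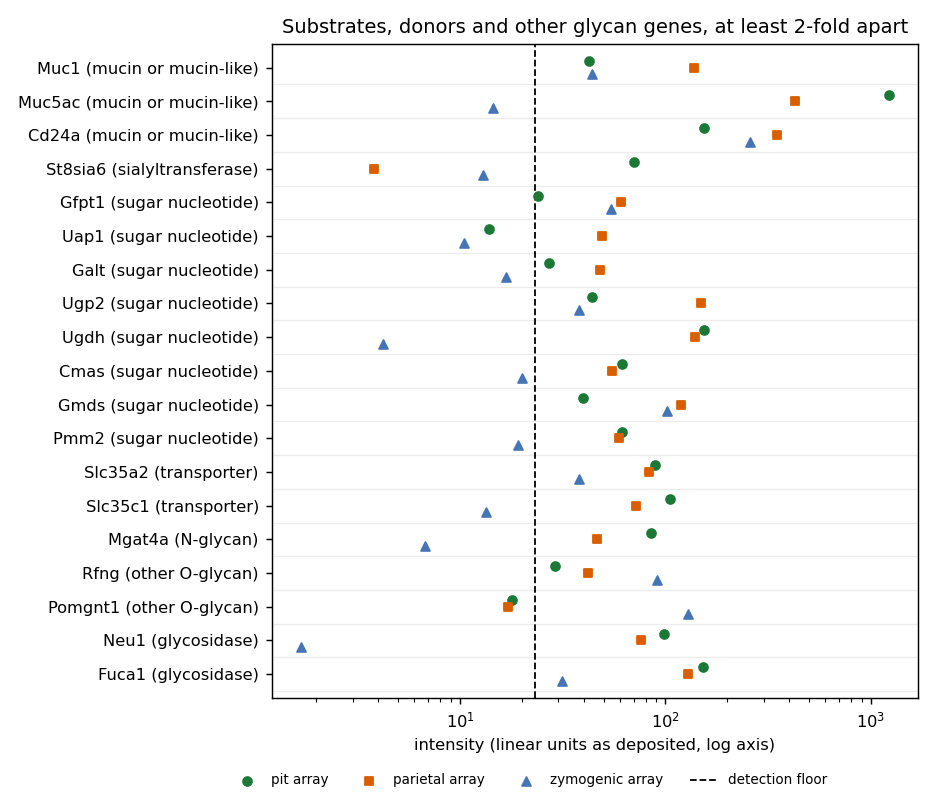
Intensity (log axis) of the substrate, donor, transporter and other glycan genes outside the enzyme families above that were at least 2-fold apart in some pair of arrays, with circles for pit, squares for parietal and triangles for zymogenic cells and the floor dashed at 23.3. Muc5ac, Ugdh, Slc35c1, Mgat4a and Neu1 have their pit and parietal points over the line and the zymogenic point under it, while Rfng and Pomgnt1 have the zymogenic point highest.

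In neighbouring pathways, Mgat4a, a branching enzyme of N-glycans, was at least 3.64-fold higher in pit than in zymogenic cells, with 84.7 in pit cells, 46.4 in parietal cells and 6.75 in zymogenic cells, and was the 1 of 12 genes of its list to pass. St8sia6, a sialyltransferase that adds a second sialic acid to O-glycans, was above the floor in pit cells alone, at 70.0 against 3.79 in parietal cells and 12.9 in zymogenic cells, and was 1 of 6 in its list. Of 10 genes of O-fucose, O-mannose and related chains, Pomgnt1, of O-mannose synthesis, stood at 17.9, 17.1 and 128, and Rfng, which modifies Notch, at 29.0, 41.8 and 90.6. Both were at least 2-fold lower in pit and in parietal than in zymogenic cells, but Rfng in parietal cells turned, to a log2 ratio of 0.11, with the BioB and BioC scaling.

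Of 10 genes for glycosidases and sulfatases, Neu1, a lysosomal sialidase, and Fuca1, a lysosomal fucosidase, were at least 2-fold higher in pit and in parietal cells than in zymogenic cells. Neu1 had 97.9 in pit cells, 75.6 in parietal cells and 1.68 in zymogenic cells, and Fuca1 153, 129 and 31.3. B4galnt2, which adds a GalNAc of the kind that DBA binds, was the 1 of 8 genes for lectin epitopes above the floor, at 4.89 in pit cells, 25.1 in parietal cells and 37.5 in zymogenic cells. DBA binding had been used to choose parietal cells and to pass over both other types.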

How the data were processed

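The authors deposited 1 intensity per probe set for each array, on a linear scale. How probes were summarised, background corrected and arrays scaled is not stated in any source here. Per the labels, RNA was amplified before labelling, which can lose 5′ ends. The molecule label and the design text differ on whether the RNA was nuclear or total. Of 45101 probe sets, 34958 name 1 gene; 932 naming several were left out, 2 of them naming a member. All 81 members matched a RefSeq gene (GRCm38) by identifier, with the same symbol. No scaling was applied. Named genes were all members above the floor, with full values for those at least 2-fold apart. Of 9 lists of related genes, those at least 2-fold apart could be named, up to 12 a list. Members, lists and roles were chosen with earlier results of these data known. No test was possible with 1 array per lineage, and the number of arrays limits precision. Alternatives were 3 scalings, other floors, a pseudocount, other probe set rules and a 4-fold threshold. Calculations used Python 3.11.15, numpy 2.4.6, pandas 2.3.3 and matplotlib 3.10.9 and were tested on simulated data.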

Additional observations from a re-analysis of the deposited data

How the results depend on the processing

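The 12 pairings of the 7 genes with an array pair were recounted under each alternative. All 12 were kept after scaling to 1 median and under the 90th percentile floor, 11 with BioB and BioC scaling, 11 with transcript-specific probe sets (B4galt1 has none), 10 after quantile normalization, 8 with the floor as pseudocount, 6 with the mean over probe sets and 3 at 4-fold. With the floor at the 99th percentile (868) no member was above it, every count was 0 and no median could be taken. Across all genes above the floor on both arrays, BioB and BioC scaling moved the median log2 ratio of pit over parietal cells to -1.09, against -0.087, and that of parietal over zymogenic cells to 1.41, against 0.47; quantile normalization moved the medians to 0.10 and 0.023.

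Counts that moved by over 1.5 times are given as higher and lower. Of these settings, shares of all genes were counted for the 4-fold threshold alone, so the other recounts are no result about the members. For pit over zymogenic cells (5 and 2), they were 9 and 6 under the 90th percentile floor, 3 and 1 with the mean over probe sets, 2 and 0 at 4-fold, and 4 lower after quantile normalization. For parietal over zymogenic cells (2 and 2), they were 9 and 5 under the 90th percentile floor, 1 and 4 after quantile normalization, 10 and 1 with BioB and BioC scaling, 1 and 1 with the mean over probe sets, 1 and 0 at 4-fold, and 5 higher with 1 median. For pit over parietal cells (1 and 0), 8 were lower with BioB and BioC scaling and 1 each with 1 median and the 90th percentile floor, and 0 were higher with the mean over probe sets and at 4-fold. The members' median became -0.64 for pit over parietal cells with BioB and BioC scaling and -0.31 for parietal over zymogenic cells under the 90th percentile floor. Galnt1 in parietal over zymogenic cells reversed, at 0.044, with BioB and BioC scaling, which also gave 1.16 for Galnt10 in pit over parietal cells (1.81) and 2.63 for Galnt2 in parietal over zymogenic cells (1.41). The cause was not tested. Of 36 pairings among related genes, 36, 34 and 27 were kept with 1 median, BioB and BioC scaling and quantile normalization, and 1 reversed. The other floors, the pseudocount and the other probe set rules were not applied to the related genes, and their further probe sets were not examined. No paired analysis was possible because each lineage has 1 array. Most members lay near or under the floor, where signal over background limits what can be seen.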
